A study of Mus musculus with 10 samples.

Results

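The Hox genes of the mouse were followed in epithelial crypts of the distal colon through chemically induced inflammation and inflammation-driven cancer. All rows of the deposited tables whose name is Hox, a cluster letter from a to d and a number were taken, which gave 39 of 23364 genes: 11 of the HoxA cluster on chromosome 6, 10 of HoxB on chromosome 11, 9 of HoxC on chromosome 15 and 9 of HoxD on chromosome 2. RNA was sequenced from 10 libraries. The DSS group (4 libraries) came from mice given DSS (dextran sulfate sodium), a polymer that injures the colon lining and causes colitis. The AOM+DSS group (3 libraries) came from mice given AOM (azoxymethane), an alkylating carcinogen, and then DSS, a pair of treatments that the series text describes as producing cancer. The control group (3 libraries) came from untreated mice. Crypts in all 3 groups were shaken loose in EDTA from distal colon alone, and the labels give no strain, age, dose or interval. The libraries are not said to stem from different animals, and the p-values therefore describe the spread among these libraries, part of which may be technical.

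Hox genes encode homeodomain transcription factors that set position along the body axis. They lie in 4 clusters, and their order along the chromosome matches the order in which they are used from head to tail, with the genes numbered 9 to 13 (the posterior genes) acting in the hindmost structures. In the gut the posterior genes mark the hindgut, from which the colon derives: Hoxd13 and Hoxa13 are needed to form its terminal part, and Hoxb13 is a marker of the most distal colon and of the prostate. Hox proteins bind DNA together with partner homeodomain proteins of the Pbx and Meis families, and Cdx proteins act upstream of Hox genes in the posterior embryo.

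RefSeq promoters (build GRCm38.p6) were at hand for 22 of the 39 genes. The 250 bases before the annotated start are shown for Hoxd10 to Hoxd13, the HoxD genes that fell in AOM+DSS crypts, and for Hoxa9, which rose. Hoxd11 has 2 annotated starts. Each reads 5′ to 3′ on the gene's own strand, with CpG dinucleotides, the sites of DNA methylation in mammals, in capitals.
Hoxd13, chr2:74667975-74668224, plus strand: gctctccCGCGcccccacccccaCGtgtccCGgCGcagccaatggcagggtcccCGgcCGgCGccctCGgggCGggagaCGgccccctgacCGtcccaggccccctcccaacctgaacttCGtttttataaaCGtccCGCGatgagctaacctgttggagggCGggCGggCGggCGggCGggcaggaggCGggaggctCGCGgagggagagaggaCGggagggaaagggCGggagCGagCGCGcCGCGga
Hoxd12, chr2:74674763-74675012, plus strand: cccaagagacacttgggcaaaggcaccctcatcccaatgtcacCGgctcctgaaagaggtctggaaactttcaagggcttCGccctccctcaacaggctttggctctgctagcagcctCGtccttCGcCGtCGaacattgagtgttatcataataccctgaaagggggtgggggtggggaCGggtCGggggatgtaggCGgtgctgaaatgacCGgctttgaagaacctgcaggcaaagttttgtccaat
Hoxd11, upstream start, chr2:74679308-74679557, plus strand: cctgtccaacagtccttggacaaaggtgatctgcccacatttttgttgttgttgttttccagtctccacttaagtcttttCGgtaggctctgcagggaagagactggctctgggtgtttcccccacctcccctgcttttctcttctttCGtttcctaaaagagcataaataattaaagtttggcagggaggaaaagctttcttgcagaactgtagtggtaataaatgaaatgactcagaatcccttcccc
Hoxd11, downstream start, chr2:74682073-74682322, plus strand: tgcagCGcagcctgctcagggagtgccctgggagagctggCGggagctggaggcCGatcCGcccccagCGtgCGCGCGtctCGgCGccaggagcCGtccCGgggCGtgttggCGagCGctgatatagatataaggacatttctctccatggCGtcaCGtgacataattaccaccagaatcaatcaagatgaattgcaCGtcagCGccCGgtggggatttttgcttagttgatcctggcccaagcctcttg
Hoxd10, chr2:74691641-74691890, plus strand: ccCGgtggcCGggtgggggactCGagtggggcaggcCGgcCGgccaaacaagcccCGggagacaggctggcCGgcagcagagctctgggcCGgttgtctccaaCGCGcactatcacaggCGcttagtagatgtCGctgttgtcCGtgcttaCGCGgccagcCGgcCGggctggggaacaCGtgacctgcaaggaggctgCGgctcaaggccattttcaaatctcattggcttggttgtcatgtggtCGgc
Hoxa9, chr6:52227371-52227620, minus strand: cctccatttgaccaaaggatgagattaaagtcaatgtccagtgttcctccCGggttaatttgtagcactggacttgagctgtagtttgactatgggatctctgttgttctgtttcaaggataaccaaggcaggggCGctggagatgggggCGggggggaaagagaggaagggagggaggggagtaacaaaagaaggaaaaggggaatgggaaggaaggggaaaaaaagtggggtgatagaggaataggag
The Hoxd13 window held 31 CpGs, the Hoxd12 window 10, the Hoxd11 windows 2 and 20, the Hoxd10 window 20 and the Hoxa9 window 3. Over 24 Hox promoters of these 22 genes the median was 12.5 CpGs, with a range of 2 to 35, and over all 32851 mouse promoters of this length it was 6. The letters TTTATNG, a sequence of the kind that posterior HOX and CDX proteins can bind, were searched on both strands. They occurred in 2 of the 24 Hox promoters (8.33%), those of Hoxb8 and Hoxd4, and in 9.81% of all promoters, and in none of the windows shown. Methylation and binding were not measured in these libraries.

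Values are normalized reads, the authors' read counts divided by a size factor for each library. The deposited tables print means per group. The reads of each library were recovered from the digits of those means, for 38 of the 39 Hox genes in every library, and for Hoxb13 in the AOM+DSS and control libraries but not in DSS. Libraries are lettered by depth within their group, a being the deepest. Size factors ran from 0.645 to 1.27 in DSS, from 0.905 to 1.34 in AOM+DSS and from 0.944 to 1.04 in control. The DSS libraries formed 2 pairs. Log values of c and d correlated at 0.983, and those of a or b with c or d at 0.877 to 0.920, over 9276 genes. In control, a and c correlated at 0.983, and b with them at 0.946 and 0.921. The AOM+DSS libraries correlated at 0.882 to 0.959. The DSS pairs also differed in base composition: the rank correlation of a gene's level, relative to the mean of all libraries, with its GC content was -0.264 and -0.282 in DSS a and b, and 0.293 and 0.313 in DSS c and d. This correlation was -0.192, -0.145 and -0.127 in AOM+DSS a to c, and 0.143, -0.0406 and 0.117 in control a to c. AOM+DSS and control thus did not overlap in it, and its part in the Hox differences was not tested. Epithelial markers were high in all groups. Their 8 means per group ran from 13089 to 73034 normalized reads in DSS, from 11451 to 57412 in AOM+DSS and from 11268 to 69346 in control, with Krt8 the highest.

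Untreated distal colon crypts used mainly the posterior end of the clusters. Divided by transcript length, Hoxb13 was the most abundant Hox gene in every group, at 2602 normalized reads per kb in DSS crypts, 1933 in AOM+DSS crypts and 3846 in control crypts. On this scale the genes numbered 9 to 13 made up 76.4% of the summed Hox level in DSS, 75.7% in AOM+DSS and 84.4% in control. The share was 79.3%, 75.7% and 72.2% in the AOM+DSS libraries and 85.6%, 84.1% and 83.4% in the control libraries, so these 2 groups did not overlap. The DSS share could not be split by library, as Hoxb13 could not. By cluster, HoxA supplied 43.9% of the Hox level in DSS, 51.1% in AOM+DSS and 29.1% in control. HoxB supplied 44.1%, 40.5% and 54.6% in the same groups, nearly all of it from Hoxb13 and Hoxb9, and HoxD 12.01%, 8.41% and 16.3%. The order of single genes moved with these shares. In control, Hoxb13 was followed by Hoxd13 at 885 normalized reads per kb, Hoxb9 at 750, Hoxa10 at 620 and Hoxa7 at 549. Hoxd13 held the fifth place in DSS, at 558, and the seventh in AOM+DSS, at 328, below Hoxa10 (900), Hoxa7 (736), Hoxb9 (557), Hoxa9 (487) and Hoxa5 (344).

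**Figure D1:**
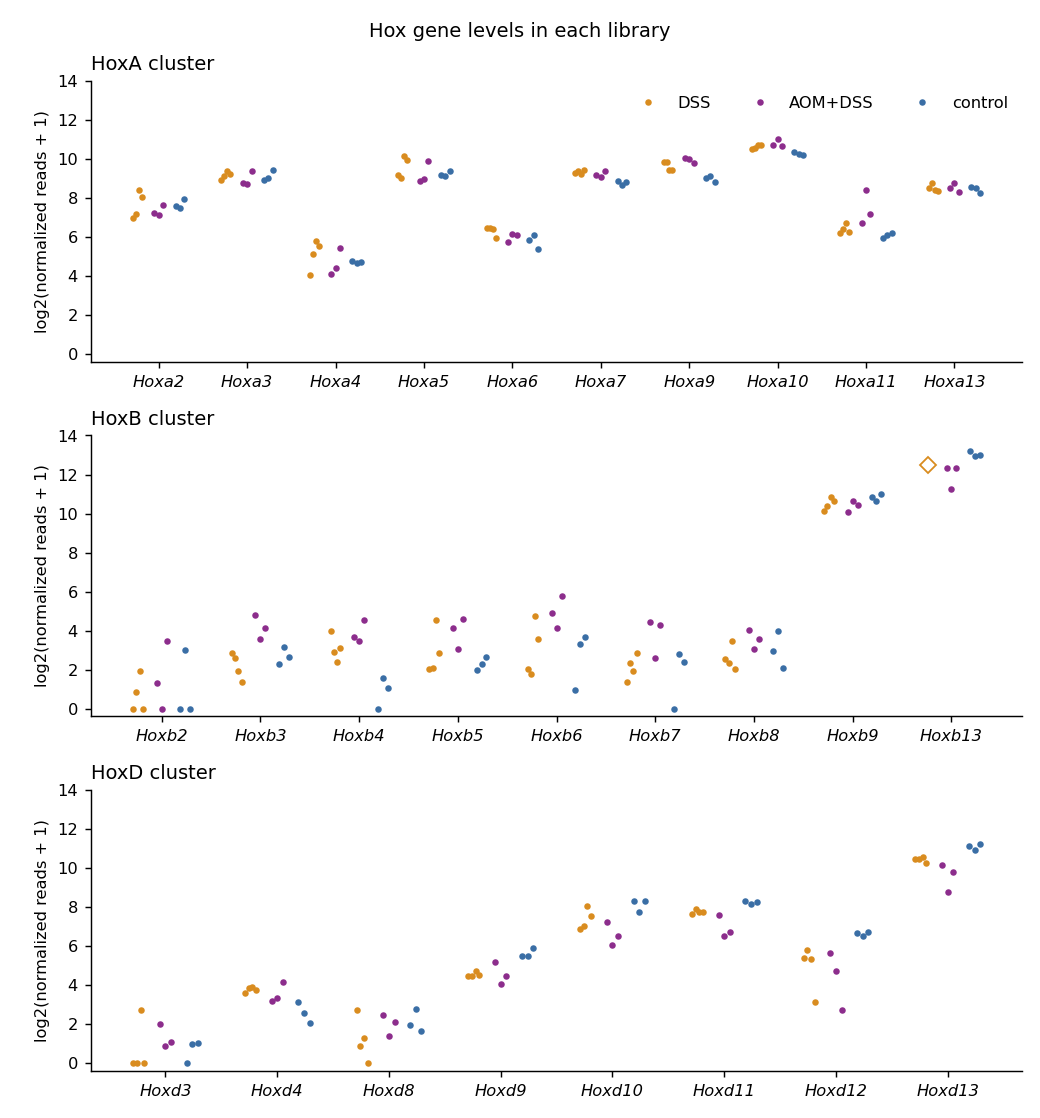
Normalized reads of the Hox genes numbered 2 or above in the HoxA, HoxB and HoxD clusters in every library, as log2(normalized reads + 1), in DSS (orange), AOM+DSS (purple) and control (blue). Each dot is 1 library, and the open diamond is the deposited DSS mean of Hoxb13. HoxA genes are present from Hoxa2 to Hoxa13, HoxB levels are low up to Hoxb8 and high at Hoxb9 and Hoxb13, and HoxD levels are low up to Hoxd8 and highest at Hoxd13.

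Of the 5 posterior HoxD genes, 1 fell in DSS (Hoxd13) and 4 in AOM+DSS (Hoxd10 to Hoxd13) by the authors' deposited tables, which called 4.39% and 8.89% of all genes. Hoxd13, the terminal gene of the cluster, had 1419, 1387, 1494 and 1241 normalized reads in the DSS crypts (libraries a to d, in that order throughout), 1121, 442.5 and 882.7 in the AOM+DSS crypts and 2247, 1959 and 2387 in the control crypts. Each treated library lay below each control library, and each AOM+DSS library below each DSS library. The authors' deposited table gave a log2 fold change of -0.67 in DSS (DESeq, adjusted p = 0.0420) and of -1.43 in AOM+DSS (adjusted p = 6.58e-08). In limma fits on the recovered reads the differences were -0.66 ± 0.12 (SE, adjusted p = 0.0153) and -1.53 ± 0.30 (SE, adjusted p = 0.0171), on the log2(normalized reads + 1) scale. Without control library a or c the limma adjusted p was 0.103 or 0.0949 in DSS and 0.0818 or 0.0794 in AOM+DSS.

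Hoxd12, its neighbour, stood at 40.3, 54.4, 39.7 and 7.76 normalized reads in DSS, 49.1, 25.6 and 5.52 in AOM+DSS, and 99.4, 88.9 and 104.9 in control. Every treated library was again below every control library, and DSS d and AOM+DSS c were far below the rest of their groups. In the authors' deposited table its log2 fold change was -1.46 in DSS (DESeq, adjusted p = 0.119) and -1.87 in AOM+DSS (adjusted p = 0.0209). The limma fit did not call the AOM+DSS difference (-2.26 ± 0.69, SE, adjusted p = 0.0606), nor did it in 5 of the 6 fits that leave out 1 library (adjusted p 0.0590 without AOM+DSS a, 0.112 without AOM+DSS b, and 0.184, 0.0813 and 0.180 without control a, b and c). It was called without AOM+DSS c, at an adjusted p of 0.0357.

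Hoxd11 followed Hoxd13 at a lower level. It had 199, 237, 211 and 216 normalized reads in DSS, 193, 90.2 and 103 in AOM+DSS, and 320, 282 and 309 in control. As for Hoxd13, the 3 groups did not overlap. The authors' deposited table gave a log2 fold change of -0.49 in DSS (DESeq, adjusted p = 0.507) and -1.24 in AOM+DSS (adjusted p = 0.00425). In limma the AOM+DSS difference was -1.31 ± 0.29 (SE, adjusted p = 0.0233), with an adjusted p of 0.0635 without AOM+DSS library b and of 0.108 and 0.0950 without control libraries a and c.

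Hoxd10 had 115, 129, 263 and 185 normalized reads in DSS, 147, 66.2 and 91.7 in AOM+DSS, and 313, 211 and 318 in control. AOM+DSS did not overlap control, whereas DSS library c lay above control library b. The log2 fold change in the authors' deposited table was -0.70 in DSS (DESeq, adjusted p = 0.2405) and -1.46 in AOM+DSS (adjusted p = 0.00573). In limma the AOM+DSS difference was -1.51 ± 0.32 (SE, adjusted p = 0.0210), and the adjusted p was 0.0506 without AOM+DSS library b and 0.104 and 0.0954 without control libraries a and c. In DSS it was called by limma only when DSS libraries c and d were left out (-1.17, adjusted p = 0.0337).

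Hoxd9, at the near end of the posterior HoxD genes, had 21.3, 21.4, 25.5 and 21.7 normalized reads in DSS, 35.7, 15.7 and 20.99 in AOM+DSS, and 44.4, 43.5 and 59.3 in control. Neither treated group overlapped control, but Hoxd9 was not called. The authors' deposited table gave a log2 fold change of -1.12 in DSS (DESeq, adjusted p = 0.438) and -1.02 in AOM+DSS (adjusted p = 0.501). Summed over Hoxd9 to Hoxd13, crypts held 1832 ± 151 normalized reads in DSS (SD, n = 4), 1097 ± 453 in AOM+DSS (SD, n = 3) and 2929 ± 308 in control (SD, n = 3), that is 0.625 times the control sum in DSS and 0.374 times in AOM+DSS. Hoxd13 makes up most of each sum. The HoxD genes nearer the other end stayed low: Hoxd1, Hoxd3, Hoxd4 and Hoxd8 together had 16.1 ± 3.86 normalized reads in DSS, 16.4 ± 5.30 in AOM+DSS and 9.61 ± 2.88 in control (SD).

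Hoxb13, alone at the far end of HoxB, fell in AOM+DSS crypts. It had 5109, 2485 and 5202 normalized reads in AOM+DSS libraries a to c and 9421, 7843 and 8189 in control libraries, without overlap, and a group mean of 5740 in DSS. For Hoxb13 the authors' deposited table listed a log2 fold change of -0.56 in DSS (DESeq, adjusted p = 0.0589) and -0.99 in AOM+DSS (adjusted p = 8.26e-05). By limma the AOM+DSS difference was -1.07 ± 0.27 (SE, adjusted p = 0.0352), and the adjusted p was 0.0692 without AOM+DSS library a and 0.138 and 0.115 without control libraries a and c.

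Hoxb9, the next expressed gene of HoxB, had 1138, 1344, 1817 and 1590 normalized reads in DSS, 1066, 1603 and 1377 in AOM+DSS, and 1813, 1570 and 2068 in control. The groups overlapped. For Hoxb9 the authors' deposited table listed a log2 fold change of -0.30 in DSS (DESeq, adjusted p = 0.474) and -0.43 in AOM+DSS (adjusted p = 0.259).

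**Figure D2:**
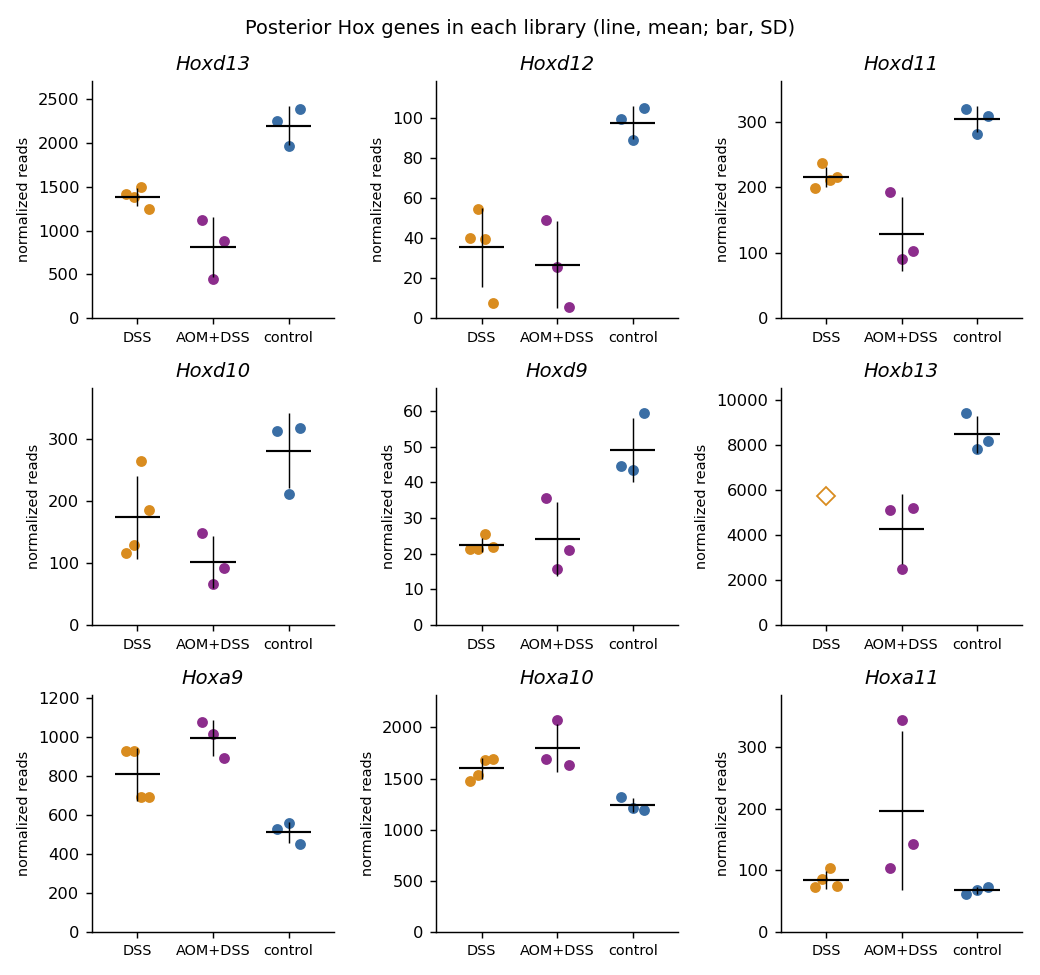
Normalized reads of 9 posterior Hox genes in each library of DSS (orange), AOM+DSS (purple) and control (blue), with the group mean (line) and SD (bar). The open diamond is the deposited DSS mean of Hoxb13. The HoxD genes and Hoxb13 are lower in AOM+DSS than in control without overlap, while Hoxa9, Hoxa10 and Hoxa11 are higher in AOM+DSS without overlap. Hoxa13 and Hoxb9, whose groups overlap, are not drawn. Of all genes, 20.7% were higher and 17.6% lower in AOM+DSS than in control without overlap.

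Of the 4 posterior HoxA genes, the authors' deposited tables called 1, Hoxa9, where they called 4.39% of all genes in DSS and 8.89% in AOM+DSS. Hoxa9, a gene also known from leukaemia as a target of MLL, rose in both treated groups: it had 926, 929, 692 and 690.2 normalized reads in DSS, 1075, 1012 and 892 in AOM+DSS, and 525, 556 and 450 in control. All treated libraries were above all control libraries, and DSS a and b stood above DSS c and d. The authors' deposited table gave a log2 fold change of 0.66 in DSS (DESeq, adjusted p = 0.0421) and 0.96 in AOM+DSS (adjusted p = 0.00159). By limma the difference was 0.65 ± 0.16 in DSS (SE, adjusted p = 0.0476) and 0.96 ± 0.13 in AOM+DSS (SE, adjusted p = 0.00476). The AOM+DSS call held in each of 6 limma fits that leave out 1 library, with adjusted p up to 0.0361. The DSS call was lost in 6 of 7 such fits: the adjusted p was 0.0840, 0.106 and 0.0580 without DSS a, b and d, and 0.176, 0.0580 and 0.212 without control a, b and c.

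Hoxa10 had 1480, 1537, 1684 and 1695 normalized reads in DSS, 1692, 2073 and 1637 in AOM+DSS, and 1319, 1208 and 1197 in control. Both treated groups lay above control without overlap. Its log2 fold change in the authors' deposited table was 0.37 in DSS (DESeq, adjusted p = 0.550) and 0.54 in AOM+DSS (adjusted p = 0.117). The limma fit called the AOM+DSS difference (0.53 ± 0.12, SE, adjusted p = 0.0232), but not without AOM+DSS library a or b (adjusted p 0.0720 and 0.0560) or control library a or c (0.0822 and 0.0948).

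Hoxa11 had 72.7, 85.7, 103.4 and 74.4 normalized reads in DSS, 103.4, 344.1 and 142.5 in AOM+DSS, and 61.8, 67.2 and 73.1 in control. AOM+DSS was above control in every library, with library b highest, and DSS overlapped control. The log2 fold change in the authors' deposited table was 0.32 in DSS (DESeq, adjusted p = 1) and 1.55 in AOM+DSS (adjusted p = 0.233). Hoxa11 shares sequence with its antisense transcript, listed in the tables as Hoxa11as, and the library kit does not mark strand, so reads of this gene pair cannot be told apart where the genes overlap. Hoxa11as was far more abundant, with a mean of 3815 normalized reads in DSS, 2596 in AOM+DSS and 4965 in control. Its libraries had 1886, 1980 and 3923 in AOM+DSS and 5084, 3800 and 6010 in control, which overlap. Hoxa11as had a log2 fold change of -0.94 in AOM+DSS by the authors' deposited table (DESeq, adjusted p = 0.243). Reads cannot be told apart by strand in any of the 10 of 39 Hox genes with an antisense overlap. Besides Hoxa11 these include Hoxa3, Hoxa4, Hoxa7, Hoxb3 and Hoxb5.

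Hoxa13, the terminal HoxA gene and the closest relative of Hoxd13, kept a similar level in the 3 groups. It had 368, 434, 336 and 333 normalized reads in DSS, 365, 442.5 and 313 in AOM+DSS, and 376, 367 and 304 in control. The limma difference was 0.07 ± 0.15 in DSS and 0.09 ± 0.17 in AOM+DSS (SE), with adjusted p of 0.814 and 0.736. Summed over Hoxa9 to Hoxa11, crypts held 2492 ± 40.2 normalized reads in DSS (SD, n = 4), 2990 ± 393 in AOM+DSS (SD, n = 3) and 1819 ± 93.5 in control (SD, n = 3), or 1.37 and 1.64 times the control sum in DSS and AOM+DSS. These 3 genes were summed after their values were seen. With Hoxa13, the sum over all posterior HoxA genes was 2860 ± 86.2 in DSS (SD, n = 4), 3364 ± 458 in AOM+DSS (SD, n = 3) and 2168 ± 131 in control (SD, n = 3). On that sum AOM+DSS c (2984) lay just below DSS b (2985), so the treated groups overlapped, and both lay above control. AOM+DSS library b held both the lowest sum of Hoxd9 to Hoxd13, 640.2, and the highest sum of Hoxa9 to Hoxa11, 3429.

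**Figure D3:**
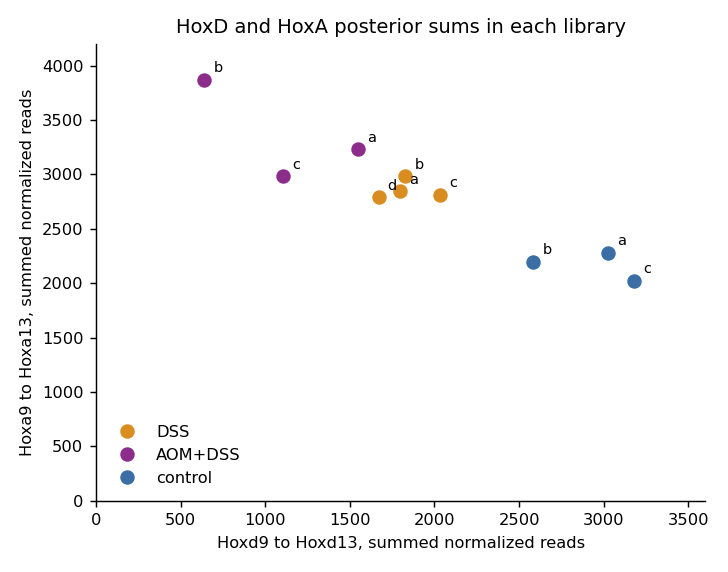
Summed normalized reads of Hoxd9 to Hoxd13 (x axis) against Hoxa9 to Hoxa13 (y axis), 1 point for each library, with its letter, in DSS (orange), AOM+DSS (purple) and control (blue). The 3 groups do not overlap in the HoxD sum; in the HoxA sum both treated groups lie above control and overlap each other.

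Of the HoxA genes numbered 2 to 7, which act further forward in the embryo, Hoxa7 was the only one called with all libraries, in DSS and by limma alone. Limma called 5.56% of all genes in DSS. Hoxa7 had 618, 681, 592 and 692 normalized reads in DSS, 570.3, 543 and 667 in AOM+DSS, and 470.2, 405 and 453 in control, both treated groups lying above control. The log2 fold change of Hoxa7 in the authors' deposited table was 0.54 in DSS (DESeq, adjusted p = 0.248) and 0.42 in AOM+DSS (adjusted p = 0.417). The limma fit called Hoxa7 in DSS (0.54 ± 0.12, SE, adjusted p = 0.0367), but in none of the 7 fits that leave out 1 library, where adjusted p ran from 0.0505 to 0.136.

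Hoxa5, which in mice is required for lung and gut patterning, had 577, 524, 1151 and 980.3 normalized reads in DSS, 465, 511 and 958 in AOM+DSS, and 591, 567 and 665 in control. Its DSS libraries split into the 2 pairs seen across all genes, with c and d above every control library, and a and b below the highest 2 of them. Without DSS a and b the limma difference of Hoxa5 was 0.81 (adjusted p = 0.0135), and without DSS c and d it was -0.14 (adjusted p = 0.488). Hoxa2 showed the same split, with 125, 143, 336 and 269.9 normalized reads in DSS, against 147, 141 and 201 in AOM+DSS and 193, 181 and 244 in control. In Hoxa4 too, DSS libraries c and d were the highest, with 15.8, 34.6, 55.2 and 45.0 in DSS, 16.4, 20.7 and 42.0 in AOM+DSS, and 26.1, 24.7 and 25.4 in control. The part of GC content in this split was not tested.

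Hoxa3 had 485, 564, 671 and 603 normalized reads in DSS, 442, 427 and 672 in AOM+DSS, and 487, 528 and 700.1 in control. Hoxa6 had 87.7, 87.3, 85.0 and 62.0 in DSS, 52.1, 70.3 and 68.5 in AOM+DSS, and 56.0, 67.2 and 41.3 in control. The groups overlapped for both genes. Adjusted p in the authors' deposited table (DESeq) was at least 0.716 for Hoxa2 to Hoxa6 in DSS and at least 0.832 in AOM+DSS.

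The HoxB genes numbered 1 to 8 were nearly silent in control crypts, and Hoxb4 was the only one of the 8 called with all libraries, in AOM+DSS and by limma alone. Limma called 17.0% of all genes in AOM+DSS. The sum of Hoxb1 to Hoxb8 was 41.7 ± 19.8 normalized reads in DSS (SD, n = 4), 111 ± 49.8 in AOM+DSS (SD, n = 3) and 31.9 ± 18.0 in control (SD, n = 3), from 148, 374 and 95 reads in all. The AOM+DSS libraries had 123, 57.1 and 155 and the control libraries 14.5, 50.4 and 30.7. Hoxb4 had 15.02, 6.59, 4.25 and 7.76 normalized reads in DSS, 11.9, 9.93 and 22.1 in AOM+DSS, and 0, 1.98 and 1.06 in control. With 35 reads in DSS, 48 in AOM+DSS and 3 in control, the ratio to control was 9.12 in DSS (95% counting interval 2.87 to 46.3) and 13.8 in AOM+DSS (4.46 to 69.5), intervals that cover counting error only. The limma adjusted p of Hoxb4 was 0.0527 in DSS and 0.0143 in AOM+DSS, where it was 0.0575 without AOM+DSS library a and 0.0702 and 0.0592 without control libraries a and c. The authors' deposited table gave an adjusted p of 0.126 in AOM+DSS (DESeq). Hoxb3, Hoxb5 and Hoxb6 were above control in every AOM+DSS library but passed neither test, with means of 18.0, 15.7 and 32.9 normalized reads in AOM+DSS against 5.69, 4.05 and 7.17 in control. Hoxb1, Hoxb2, Hoxb7 and Hoxb8 overlapped control. Of all genes, 20.7% were higher in AOM+DSS without overlap.

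HoxC was almost unread. Its 9 genes together gave 4 reads in DSS, 4 in AOM+DSS and 2 in control, and 5 of them (Hoxc8, Hoxc10, Hoxc11, Hoxc12 and Hoxc13) had 0 reads in all 10 libraries.

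Across the family, the DSS changes were few. Of 31 Hox genes with a p-value in the authors' deposited table, 1 rose (Hoxa9) and 1 fell (Hoxd13), or 6.45%, where 4.39% of all 18099 genes tested were called (2.61% higher, 1.78% lower). Of the 17 Hox genes with a mean of at least 20 over the groups these are 11.8%, where 5.99% of all genes of such levels were called. At an unadjusted p under 0.05 that table had 3 Hox genes higher and 4 lower, and 13.2% of all genes. The limma fit called 2 higher (Hoxa7 and Hoxa9) and 1 lower (Hoxd13) of 30 Hox genes, with 2.90% of all genes called higher and 2.66% lower (5.56% in all). Groups did not overlap for 5 Hox genes that were higher (13.2% of 38) and 4 that were lower (10.5%), against 9.26% and 10.8% of all genes, shares near the background.

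In AOM+DSS, 6 Hox genes were called, and those that fell lay at the posterior end of HoxB and HoxD. Of 34 Hox genes with a p-value in the authors' deposited table, 1 rose (Hoxa9) and 5 fell (Hoxb13, Hoxd10, Hoxd11, Hoxd12 and Hoxd13), or 17.6%, where 8.89% of all 18334 genes were called (5.54% higher, 3.35% lower). Of the 17 with a mean of at least 20 these are 35.3%, where 12.1% of all genes of such levels were called. All 5 that fell are numbered 10 or above, and 4 of them belong to HoxD. At an unadjusted p under 0.05 that table had 5 Hox genes higher and 6 lower, and 18.9% of all genes. The limma fit called 3 higher (Hoxa9, Hoxa10 and Hoxb4) and 4 lower (Hoxb13, Hoxd10, Hoxd11 and Hoxd13) of 34, with 10.7% of all genes called higher and 6.35% lower (17.0% in all). Without control library a or c, limma called 1 Hox gene, Hoxa9. Groups did not overlap for 9 Hox genes that were higher (23.1% of 39) and 6 that were lower (15.4%), against 20.7% and 17.6% of all genes, again near the background. Among Hox genes with a mean of at least 20, the median log2 fold change in the authors' deposited table was 0.39 for HoxA and -0.70 for HoxD in DSS, and 0.16 and -1.43 in AOM+DSS. Over all genes of such levels it was 0.035 in DSS and 0.0040 in AOM+DSS. Both comparisons use the same control libraries.

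**Figure D4:**
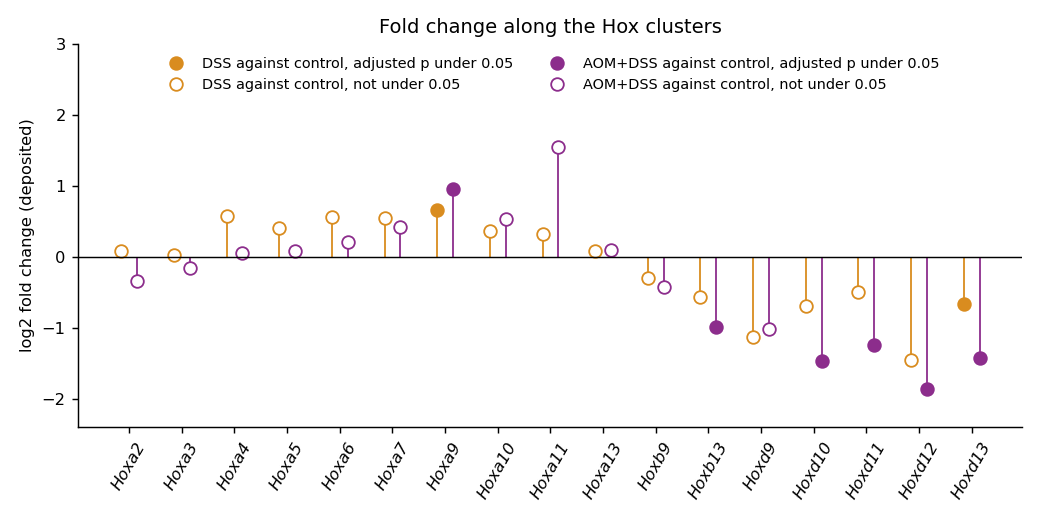
Log2 fold change against control in the authors' deposited tables for the 17 Hox genes with a mean of at least 20 normalized reads, in cluster order, for DSS (orange) and AOM+DSS (purple). Filled circles have an adjusted p under 0.05. Values of Hoxa4 to Hoxa13 lie above 0 in both comparisons, and those of Hoxb9, Hoxb13 and Hoxd9 to Hoxd13 lie below 0; limma gives the AOM+DSS value of Hoxa4 the other sign.

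Set against each other directly, AOM+DSS and DSS crypts gave no Hox gene past the threshold in limma: 0 of 33 had an adjusted p under 0.05, with 2.28% of all genes called higher and 0.0825% lower (2.36% in all). Unadjusted p-values under 0.05 were found for 4 Hox genes above and 2 below DSS, and for 13.7% of all genes. The lowest adjusted p was that of Hoxb3, 0.119. For Hoxd13 the difference was -0.86 ± 0.27 (SE, limma adjusted p = 0.185), for Hoxd11 -0.82 ± 0.27 (adjusted p = 0.216) and for Hoxd10 -0.76 ± 0.37 (adjusted p = 0.413). Libraries did not overlap for Hoxd11 and Hoxd13, lower in AOM+DSS, and for Hoxb3, higher in AOM+DSS; over all genes the shares without overlap were 3.42% lower and 8.86% higher. Without DSS libraries a and b, limma called 3 Hox genes between these groups, Hoxa9 and Hoxb3 higher and Hoxa2 lower.

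Protein-coding genes that flank the clusters changed at some ends and not at others. Evx1, a homeobox gene beside Hoxa13, rose in AOM+DSS. It had 123, 181, 133 and 227 normalized reads in DSS, 344, 599.7 and 198 in AOM+DSS, and 25.1, 68.1 and 36.0 in control. No treated library overlapped control, and AOM+DSS library b was again the highest. By the authors' deposited table the log2 fold change of Evx1 was 1.95 in DSS (DESeq, adjusted p = 0.125) and 3.14 in AOM+DSS (adjusted p = 0.00112), and limma called it in both (adjusted p = 0.0192 and 0.00843). The AOM+DSS call of Evx1 held in each of 6 limma fits that leave out 1 library (adjusted p up to 0.0480), whereas the DSS adjusted p was 0.0506 and 0.0512 without DSS libraries b and d, and 0.103 and 0.107 without control libraries a and c.

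Ttll6, a tubulin-modifying enzyme gene beside Hoxb13, fell in AOM+DSS. It had 756, 851, 1640 and 1196 normalized reads in DSS, 602, 442.5 and 987 in AOM+DSS, and 2448, 1555 and 2875 in control. AOM+DSS lay below control without overlap, and DSS library c lay above control library b. The log2 fold change of Ttll6 was -1.05 in DSS (DESeq, adjusted p = 0.0691) and -1.76 in AOM+DSS (adjusted p = 0.000951), according to the authors' deposited table. At the other end of HoxA, Skap2, an adaptor protein gene outside the cluster, had 1846, 2090, 1602 and 1757 normalized reads in DSS, 2329, 2843 and 1912 in AOM+DSS, and 1432, 1377 and 1362 in control. No treated library overlapped control, and the AOM+DSS log2 fold change of Skap2 was 0.76 in the authors' deposited table (DESeq, adjusted p = 0.00745). Without AOM+DSS library a, control library a or control library c, the limma adjusted p was 0.0588, 0.0668 and 0.0605 for Ttll6 and 0.0677, 0.0722 and 0.0715 for Skap2, against 0.0121 and 0.0154 with all libraries. Evx2, beside Hoxd13, averaged 12.6 normalized reads in DSS, 9.19 in AOM+DSS and 14.6 in control, and was not called. Of 8 flanking genes, the authors' deposited tables call 0 in DSS, where 4.39% of all genes were called, and 2 higher and 1 lower in AOM+DSS, where the shares of all genes were 5.54% and 3.35%. In DSS, 3 of the 8 had an unadjusted p under 0.05, against 13.2% of all genes. Limma called 1 of the 8 in DSS, against 5.56% of all genes.

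Among 9 genes for Hox partner proteins of the Pbx, Meis and Pknox families, the authors' deposited tables called 0 in DSS, against 4.39% of all genes. In DSS 1 of the 9 had an unadjusted deposited p under 0.05, against 13.2% of all genes, and limma called 0, against 5.56%. For AOM+DSS the deposited tables listed 1 that rose (Meis2) and 1 that fell (Meis3), against 5.54% and 3.35% of all genes. Meis3 had 128, 102, 228 and 209 normalized reads in DSS, 81.0, 129.9 and 170.1 in AOM+DSS, and 322, 218 and 311 in control. For Meis3 the authors' deposited table listed a log2 fold change of -1.16 in AOM+DSS (DESeq, adjusted p = 0.0108). Meis2 was close to absent outside AOM+DSS. It had 1.58, 0, 0 and 0 normalized reads in DSS, 44.6, 48.0 and 38.7 in AOM+DSS, and 0, 7.90 and 0 in control. The AOM+DSS log2 fold change of Meis2 was 4.05 in the authors' deposited table (DESeq, adjusted p = 0.00663), and limma also called it higher in AOM+DSS than in DSS (adjusted p = 0.00174). Against control the limma adjusted p of Meis2 was 0.0154, and 0.0671, 0.0764 and 0.0703 without AOM+DSS library a, control library a and control library c. That of Meis3 was 0.0343, and 0.0949, 0.0797, 0.145 and 0.133 without AOM+DSS libraries a and b and control libraries a and c. Pbx2, the most abundant partner, averaged 935 normalized reads in DSS, 880.2 in AOM+DSS and 936 in control, with no call.

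**Figure D5:**
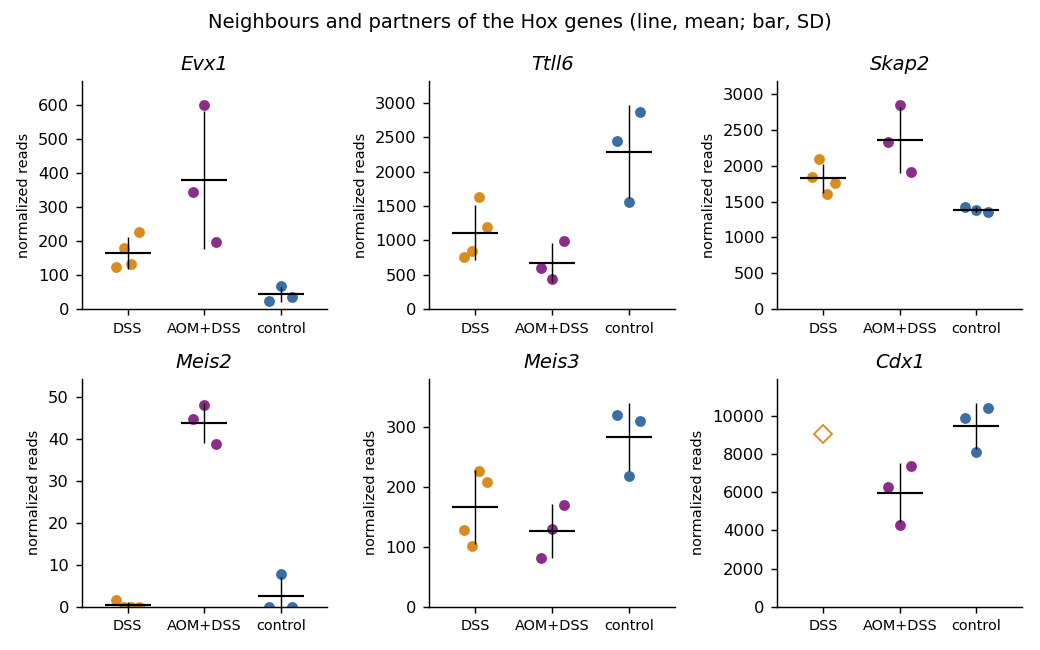
Normalized reads of 3 genes that flank Hox clusters (Evx1, Ttll6, Skap2), 2 genes for Hox partner proteins (Meis2, Meis3) and Cdx1 in each library of DSS (orange), AOM+DSS (purple) and control (blue), with the group mean (line) and SD (bar). The open diamond is the deposited DSS mean of Cdx1. Evx1, Skap2 and Meis2 are higher and Ttll6, Meis3 and Cdx1 lower in AOM+DSS than in control without overlap. The shares of all genes without overlap were 20.7% higher and 17.6% lower.

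Of the Cdx genes and their relatives, 3 of 6 were expressed. The authors' deposited tables called 0 of them in either comparison, with 2 in DSS and 1 in AOM+DSS at an unadjusted p under 0.05. Of all genes, those tables called 4.39% in DSS and 8.89% in AOM+DSS. The shares with an unadjusted p under 0.05 were 13.2% and 18.9%. Cdx1 averaged 9063 normalized reads in DSS, 5982 in AOM+DSS and 9475 in control (log2 fold change -0.66 in AOM+DSS by the authors' deposited table, DESeq adjusted p = 0.0684). Cdx2 averaged 4430 in DSS, 3549 in AOM+DSS and 2338 in control (log2 fold change 0.92 and 0.60 in the authors' deposited tables, DESeq adjusted p = 0.296 in DSS and 0.528 in AOM+DSS). Of 15 genes for chromatin regulators known to maintain Hox expression or silencing, from the MLL and Polycomb groups, the authors' deposited tables called 0 in each comparison. An unadjusted p under 0.05 was found for 0 in DSS and 3 in AOM+DSS, against the same 13.2% and 18.9% of all genes. Limma called 0 of 14 in DSS, where Mll1 could not be tested, and 0 of 15 in AOM+DSS. Of all genes it called 5.56% in DSS and 17.0% in AOM+DSS. The median log2 fold change of the 15 in the deposited tables was 0.20 in either comparison, against 0.02 over all genes.

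These are bulk libraries, in which fewer cells of a type and less RNA per cell cannot be told apart. Marker RNA of other cell types than epithelium differed in level between libraries. Summed over 10 fibroblast and matrix markers, libraries held 661 to 1335 normalized reads in DSS, 3744 to 5294 in AOM+DSS and 558 to 2347 in control, control b being highest of its group. Vim and Fbln1 had higher means in DSS (414 and 185) than in control (216 and 73.0), and each other marker of this list had a lower one. The median log2 fold change of the 10 in the deposited tables was -1.67 in DSS and 1.39 in AOM+DSS. By the authors' deposited tables, Fbln1 and Vim rose in AOM+DSS and Pdgfrb fell in both comparisons. Limma called Fbln1 higher and Pdgfrb lower in DSS, and Fbln1 and Vim higher in AOM+DSS. Over 7 smooth muscle markers the sums were 1167 to 1837 in DSS, 1348 to 13772 in AOM+DSS and 853 to 2457 in control, AOM+DSS c being the highest, and 0 of 7 were called in either comparison by the deposited tables or limma, or had an unadjusted deposited p under 0.05. Most of the DSS sum is Mylk, at a mean of 1240 in DSS and 919 in control. Each other smooth muscle marker had a lower mean in DSS than in control. The median log2 fold change of the 7 in the deposited tables was -2.48 in DSS and 3.28 in AOM+DSS. Over 5 leukocyte markers the sums were 954 to 7648 in DSS, with library a highest, 1023 to 1812 in AOM+DSS and 257 to 1059 in control. The deposited tables called 0 of 5 (0 in DSS and 2 in AOM+DSS at an unadjusted p under 0.05), whereas limma called Cd79a higher in DSS and Cd68 and Itgam higher in AOM+DSS. Over 7 enteric neuron and glia markers they were 90.6 to 255 in DSS, 484 to 2152 in AOM+DSS, with library b highest, and 113 to 148 in control. Of these 7 the deposited tables called 0 (0 in DSS and 1 in AOM+DSS at an unadjusted p under 0.05), whereas limma called Ret higher in AOM+DSS. Most of that sum is Ret, at a mean of 1049 in AOM+DSS, while Sox10 averaged 3.31 there. Over 4 endothelial markers the sums were 275 to 621 in DSS, 233 to 621 in AOM+DSS and 452 to 688 in control, with 0 of 4 called in either comparison by the deposited tables or limma (1 in each at an unadjusted deposited p under 0.05). The part of these cells in the levels of Meis2, Evx1, the HoxB genes numbered 1 to 8 and the other Hox genes was not tested. The 8 epithelial markers summed to 246361 normalized reads in DSS, 219136 in AOM+DSS and 219917 in control.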

How the data were processed

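Poly(A) RNA libraries were made with an unstranded kit, per the labels' protocols. Reads were mapped to mm9 with TopHat2 2.0 and compared with DESeq, per the submitters' processing notes; the sources used here do not name the read counter or its annotation. The signal columns are group means of size-factor-normalized read counts, per the file headers. The deposited fold change is the ratio of group means, the log2 column is its logarithm, and the p-values carry the authors' Benjamini-Hochberg adjustment, per the file headers. One header speaks of 4 AOM+DSS replicates; the labels list 3, as does the step structure of the means.

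A group mean is a sum of whole reads times a step for each library. Values are printed with up to 15 digits, and a gene counted as recovered where 1 combination of whole reads gave its mean. This held for 88.8%, 99.2% and 99.0% of genes in DSS, AOM+DSS and control, which hold 30.9%, 81.2% and 76.7% of the mean totals. Recovered reads ran from 3912166 to 7693423 in DSS, 13745369 to 20139515 in AOM+DSS and 13478107 to 14985085 in control. Recovery and limma were tested on simulated data. No 2 libraries of a group agreed within counting noise.

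Calls use the authors' adjusted p under 0.05. Limma 3.58.1 (R 4.3.3, with trend) on log2(normalized recovered reads + 1), over all recovered genes of each pair of groups, is the second test, and the only one between AOM+DSS and DSS. Lengths, antisense overlaps and gene IDs came from GENCODE M21; neighbours from RefSeq. Hox genes with a mean of at least 20, or called by either test, have their values given for each library; from lists, called members, or else the 2 most abundant, are named. Hoxb3, Hoxb5, Hoxb6, Hoxa11as, Evx2 and the HoxC genes were added after their values were seen. Values of some single genes are not reported here. The Hox genes and the lists were chosen with earlier results of these data known.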

Additional observations from a re-analysis of the deposited data

Results flagged for a closer look

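Among 42 genes tested in the 4 DSS libraries, 5 had 1 library set apart from the other 3 by its gap relative to the range. By this measure chance flags about 1 in 20 groups. It takes no account of counting noise, and the gaps of Hoxd9 and Cbx2 are small in reads. Hoxa6 was lowest in library d, at 62.0 normalized reads, with the others between 85.0 and 87.7. Hoxd9 was highest in library c, at 25.5, the next being 21.7. Rnf2, a Polycomb gene, was highest in library a, at 715, against 498 in the next. Cbx2, another Polycomb gene, was highest in library a, at 206, with the others between 194 and 195. Skap1, beside Hoxb1, was highest in library a, at 206.3, the next being 25.5; library a also had the highest leukocyte marker sum, 7648, and the part of leukocytes in the Skap1 value was not tested. The AOM+DSS and control groups, with 3 libraries each, were too small for this test.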

How the results depend on the processing

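No paired analysis was possible because the recovered libraries carry no replicate numbers, so the planned fit with a replicate block was not run. Counts of Hox genes called in DSS (2) ran from 0 to 2 by limma when 1 library was left out, 0 without control library a or c, and 4 without DSS libraries a and b (Hoxa5, Hoxa7 and Hoxa10 higher, Hoxd13 lower) or without c and d (Hoxa7 and Hoxa9 higher, Hoxd10 and Hoxd13 lower). Counts in AOM+DSS (6) ran from 1 to 8 when 1 library was left out, being 1 without control library a or c. Between AOM+DSS and DSS (0) the count was 3 without DSS libraries a and b and 0 in each of 7 fits that leave out 1 library. Counts in other settings (limma, pseudocounts of 0.5 and 10, a mean of at least 10, median centring, an adjusted p of 0.1) stayed within 1.5 times. For the related genes in DSS (0), the count was 1 at an adjusted p under 0.1 (Ttll6) and 1 by limma (Evx1). Centring moved the median of all genes by at most 0.03 on the log2 scale. The share from genes numbered 9 to 13 was 82.3% in DSS, 81.6% in AOM+DSS and 88.7% in control by coding length, and 83.0%, 82.4% and 88.7% with no division by length; without 1 library it ran from 73.7% to 77.6% in AOM+DSS and from 83.8% to 84.9% in control.

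Of 332 values of single genes under the alternatives, 267 kept direction and side of the threshold, 26 lost the call, 14 gained it and 25 changed sign, all of Hoxa2 to Hoxa5 and Hoxa13, none of them called in the authors' deposited tables. By limma, the difference of Hoxa2 in DSS was -0.024 and that of Hoxa4 in AOM+DSS -0.061. Leaving out 1 library gave ranges of -0.27 to 0.20 for Hoxa2, -0.076 to 0.19 for Hoxa3 and -0.022 to 0.13 for Hoxa13 in DSS, and -0.44 to 0.21 for Hoxa4, -0.31 to 0.21 for Hoxa5 and -0.040 to 0.21 for Hoxa13 in AOM+DSS. Without DSS libraries c and d, Hoxa2 was -0.61, Hoxa3 -0.11, Hoxa4 -0.11 and Hoxa5 -0.14, and without a and b Hoxa13 was -0.054. The causes were not tested. Depth limits Hoxb1 to Hoxb8 and HoxC, whose counts are too small to show modest differences, and Hoxb13 in DSS, whose libraries could not be separated.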
